A study of Mus musculus with 38 samples.

Results

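Kidney transcriptomes of mice with Adriamycin nephropathy were compared 24 h after 1 intravenous injection of fibroblast growth factor 23 (FGF23) or of its vehicle. The comparison held 8 of the 38 libraries of the series, chosen by their labels and by no measured value: 4 mice given FGF23 (Ad13 to Ad16) and 4 given vehicle (Ad5 to Ad8). All were female BALB/c mice that had received a single intravenous dose of Adriamycin (doxorubicin) at the age of 8 weeks, then either 1 µg of recombinant human FGF23 or PBS-BSA alone. Each library came from a fragment of the kidney of 1 mouse. The same experiment held 4 healthy female BALB/c mice given vehicle (Ad1 to Ad4) and 4 given the same FGF23 injection (Ad9 to Ad12), which were used to ask whether the response differed with disease. A further 7 libraries served as the contrast of a repeated exposure in another kidney disease. They came from male C57BL/6 mice with anti-glomerular basement membrane (anti-GBM) disease, 4 given vehicle and 3 given FGF23, daily for 6 days. Healthy male C57BL/6 mice of that experiment, given vehicle or FGF23, were part of the statistical fit of that contrast.

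FGF23 is a hormone made mainly by bone cells. In the renal tubule it binds FGF receptors together with the co-receptor Klotho, signals through the MAPK cascade, removes sodium-phosphate cotransporters from the brush border and lowers active vitamin D by repressing Cyp27b1 and inducing Cyp24a1. Its circulating concentration climbs in kidney disease. Adriamycin is an anthracycline that damages DNA and injures podocytes, the filter cells of the glomerulus, and BALB/c mice are susceptible to the resulting proteinuric disease.

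Total counts ran from 17187586 to 23228644 in Adriamycin mice given vehicle and from 15665050 to 23602823 in those given FGF23, the lowest total being that of Ad16. Mitochondrial genes took 8.74% to 9.40% and 8.76% to 9.16% of counts. The kidney label held in each library: the proximal tubule marker Slc34a1 lay between 3899 and 5349 CPM (counts scaled to an equal library size) over the 8 mice, and the podocyte marker Nphs1 between 44.03 and 60.05 CPM. Over all expressed genes, mice of different treatment were as far apart as mice of the same treatment, with a median root-mean-square distance of 0.400 against 0.401 in log2 CPM. The summed level of 8 adipocyte markers was 30.5 to 54.7 CPM after vehicle and 33.3 to 57.6 CPM after FGF23. Of the 8 Adriamycin mice only Ad16 had any Adipoq reads, at 3.09 CPM. Among 7 expressed adipocyte markers 6 were higher after FGF23, with a median log2 fold change of 3.59, or 0.29 without Ad16. In healthy mice the sum was larger and more variable, at 47.4 to 154 CPM after vehicle and 56.2 to 472 CPM after FGF23.

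The response in Adriamycin kidney was small. Of 16020 genes tested with edgeR's quasi-likelihood test, 6 had a Benjamini-Hochberg adjusted p below 0.05, which is 0.0375% of the genes, and all 6 were higher after FGF23. They were Cebpb, Dclre1b, Slc25a33, Arrdc2, Polr3e and Kcnk5. At an unadjusted p below 0.05 there were 912 genes (5.69%), 444 of them higher (2.77%) and 468 lower (2.92%), and the median log2 fold change of all genes was 0.00. DESeq2 called 36 genes, 29 higher and 7 lower, including these 6. Leaving out single mice gave between 1 and 12 calls, the fewest without Ad14 or Ad15 and the most without Ad16. Cebpb passed each time (adjusted p up to 0.0403). Dclre1b did not pass without Ad14 or Ad15 (adjusted p = 0.0534 and 0.0724). Slc25a33 passed only without Ad8, Ad13 or Ad16, Arrdc2 and Polr3e only without Ad5, Ad13 or Ad16, and Kcnk5 only without Ad13, with adjusted p of at most 0.156 when they did not.

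**Figure D1:**
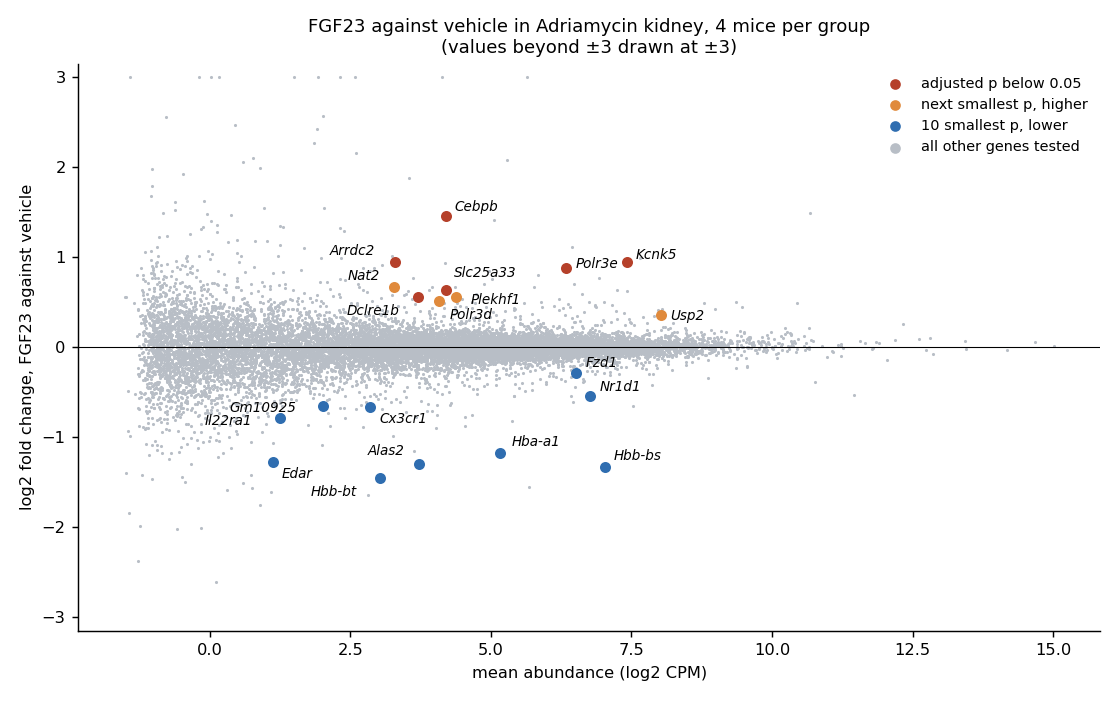
Each point is 1 of 16020 genes, with mean abundance in log2 CPM on the horizontal axis and the log2 fold change of FGF23 against vehicle (4 mice each) on the vertical axis. Red points are the 6 genes with an adjusted p below 0.05, which all lie above 0. Orange points are the 4 genes with the next smallest p among the higher ones and blue points the 10 with the smallest p among the lower ones, none of which passed. Genes beyond 3 in either direction are drawn at the edge.

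Sequences upstream of these genes are shown because promoter motifs were searched for anything that the 6 share. RefSeq windows of 250 bases before to 50 after the start site (GRCm38.p6) existed for all 6. The E-box CACGTG, a binding site of basic helix-loop-helix factors such as the clock proteins and MYC, occurred in 3 of the 6 windows (Slc25a33, Polr3e and Kcnk5) and in 7.15% of 32851 windows of all genes. The NF-kB motif, GGGA and CC parted by NNNN, occurred in 2 (Cebpb and Polr3e) and in 20.7% of all windows. None of the 6 windows held the C/EBP motif TTGCNNAA (10.8% of all windows), the cyclic AMP response element TGACGTCA (1.79%), the AP-1 motif TGANTCA (7.81%) or the heat-shock element, in which GAA, TTC and GAA are each parted by NN (0.603%). Both strands were searched. The Polr3e window also held the B box (GGTTCGA and CC parted by NN), an internal promoter element of genes that RNA polymerase III itself transcribes, which occurred in 0.122% of all windows and was searched for after this sequence had been read. Capitals mark the NF-kB motif in Cebpb (chr2:167688665-167688914, plus strand), the E-box in Slc25a33 (chr4:149774268-149774517, minus strand), the B box in Polr3e (chr7:120917528-120917777, plus strand), each in the 250 bases before the start site, and the E-boxes of Polr3e (chr7:120917771-120917800, plus strand) and Kcnk5 (chr14:20181739-20181768, minus strand) with 12 bases on each side.
Cebpb upstream: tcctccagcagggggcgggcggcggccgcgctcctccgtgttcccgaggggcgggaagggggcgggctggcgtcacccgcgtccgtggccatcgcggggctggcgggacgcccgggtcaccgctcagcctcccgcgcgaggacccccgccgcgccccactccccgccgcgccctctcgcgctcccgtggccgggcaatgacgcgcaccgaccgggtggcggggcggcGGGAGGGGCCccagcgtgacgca
Slc25a33 upstream: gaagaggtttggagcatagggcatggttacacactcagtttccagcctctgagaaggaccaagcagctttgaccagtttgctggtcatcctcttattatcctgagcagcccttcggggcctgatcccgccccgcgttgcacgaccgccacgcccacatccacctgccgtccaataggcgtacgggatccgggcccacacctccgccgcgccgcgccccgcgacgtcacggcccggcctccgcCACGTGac
Polr3e upstream: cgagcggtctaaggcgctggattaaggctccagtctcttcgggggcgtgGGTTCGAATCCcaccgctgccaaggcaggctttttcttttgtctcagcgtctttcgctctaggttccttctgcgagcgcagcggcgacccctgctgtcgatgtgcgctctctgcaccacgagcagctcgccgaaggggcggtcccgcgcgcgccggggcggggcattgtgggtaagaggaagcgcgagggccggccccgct
Polr3e E-box: ccccgctcccccCACGTGtccggcggagtt
Kcnk5 E-box: gcagaggcggcaCACGTGtctgctggtgtg

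Cebpb had the smallest p and the largest change of the 6. It encodes C/EBP-beta, a leucine zipper transcription factor of inflammatory, metabolic and differentiation programmes (ENSMUSG00000056501, chromosome 2, 167688915 to 167690418, plus strand). Its level was 13.9, 10.7, 13.1 and 14.2 CPM in the vehicle mice Ad5 to Ad8 and 30.5, 44.2, 39.9 and 27.5 CPM in the FGF23 mice Ad13 to Ad16. The lowest FGF23 mouse thus lay well above the highest vehicle mouse. The log2 fold change was 1.46 ± 0.18 (SE, adjusted p = 0.00543), a 2.75-fold rise, on counts of 232 to 305 against 427 to 1005. Tmem189, which overlaps Cebpb on the opposite strand, had a log2 fold change of 0.17 (adjusted p = 0.873). Of the other C/EBP genes, Cebpd was at 17.5 to 27.9 CPM after vehicle and 25.8 to 36.5 CPM after FGF23 (log2 fold change 0.50, adjusted p = 0.772), and Cebpa, the family member of differentiated cells, had a log2 fold change of -0.20 (adjusted p = 0.955). The list of 6 expressed C/EBP family genes had 1 call and a median of 0.12.

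Dclre1b showed the tightest separation. It encodes Apollo, a nuclease that trims telomere ends and takes part in repair of DNA crosslinks (ENSMUSG00000027845, chromosome 3, 103800605 to 103809444, minus strand). Vehicle mice had 11.98, 12.6, 12.7 and 11.8 CPM and FGF23 mice 17.4, 18.4, 19.5 and 17.1 CPM. The groups were apart by several times their own spread, with SDs of 0.44 and 1.07 CPM around means of 12.3 and 18.1 CPM (n = 4 each). The log2 fold change was 0.56 ± 0.07 (adjusted p = 0.0105). Ap4b1, whose start lies 76 bases from that of Dclre1b on the other strand, had a log2 fold change of -0.07 (adjusted p = 0.991). Among the 25 genes of crosslink, telomere and double-strand break repair, 13 were higher and 12 lower, with a median of 0.02 and Dclre1b as the only call. Mre11a, a double-strand break nuclease, was at 16.4 to 16.99 CPM after vehicle and 14.02 to 16.4 CPM after FGF23 (log2 fold change -0.16, adjusted p = 0.861).

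Polr3e encodes a subunit particular to RNA polymerase III, the enzyme that makes transfer RNAs and 5S ribosomal RNA (ENSMUSG00000030880, chromosome 7, 120917744 to 120947432, plus strand). It was at 87.8, 69.2, 64.3 and 72.1 CPM after vehicle and 136, 149.8, 159 and 96.8 CPM after FGF23. Ad16 was the lowest of the FGF23 mice and Ad5 the highest of the vehicle mice, and the groups did not overlap. The log2 fold change was 0.89 ± 0.14 (adjusted p = 0.0256). Polr3d, the subunit gene with the next smallest p, was at 13.1, 14.9, 16.2 and 14.7 CPM against 18.6, 24.8, 21.4 and 19.2 CPM, again without overlap. Its log2 fold change of 0.52 ± 0.10 missed the threshold of edgeR's test (adjusted p = 0.133), while DESeq2 called it (adjusted p = 0.00285). The largest subunit, Polr3a, went the other way, at 31.8 to 34.2 CPM after vehicle and 27.3 to 33.6 CPM after FGF23 (-0.15, adjusted p = 0.869). Polr3b, the second-largest subunit, was at 26.3 to 30.9 CPM against 25.3 to 29.01 CPM (-0.05, adjusted p = 0.991), and the median of the 11 RNA polymerase III genes was 0.02. This list was assembled after the Polr3e value was known.

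Slc25a33 encodes a mitochondrial carrier of pyrimidine nucleotides (ENSMUSG00000028982, chromosome 4, 149744036 to 149774277, minus strand). Vehicle mice had 15.8, 14.1, 15.9 and 17.1 CPM and FGF23 mice 21.5, 28.7, 23.5 and 24.2 CPM, so that each treated mouse exceeded each control. This was a log2 fold change of 0.64 ± 0.09 (adjusted p = 0.0230). Arrdc2, a member of the alpha-arrestin family of membrane protein adaptors (ENSMUSG00000002910, chromosome 8, 70835129 to 70839720, minus strand), went from 9.12, 8.26, 7.44 and 7.10 CPM to 15.2, 18.6, 15.6 and 11.9 CPM. Ad16 again was the lowest of the treated mice. For Arrdc2 this gave a log2 fold change of 0.94 ± 0.14 (adjusted p = 0.0230).

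Kcnk5, a pH-sensitive background potassium channel of the proximal tubule (ENSMUSG00000023243, chromosome 14, 20140057 to 20181809, minus strand), was the most abundant of the 6. It stood at 143, 115, 139 and 149.5 CPM after vehicle and at 209, 289, 280.2 and 275 CPM after FGF23. Here Ad13 was the lowest treated mouse and Ad16 resembled the rest. Kcnk5 had a log2 fold change of 0.95 ± 0.15 (adjusted p = 0.0256). Dclre1b and Slc25a33 also overlap gene models on the opposite strand, named Gm15471 and Gm13068. In whole kidney tissue, more RNA per cell and more cells of the expressing type cannot be told apart for any of these genes.

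**Figure D2:**
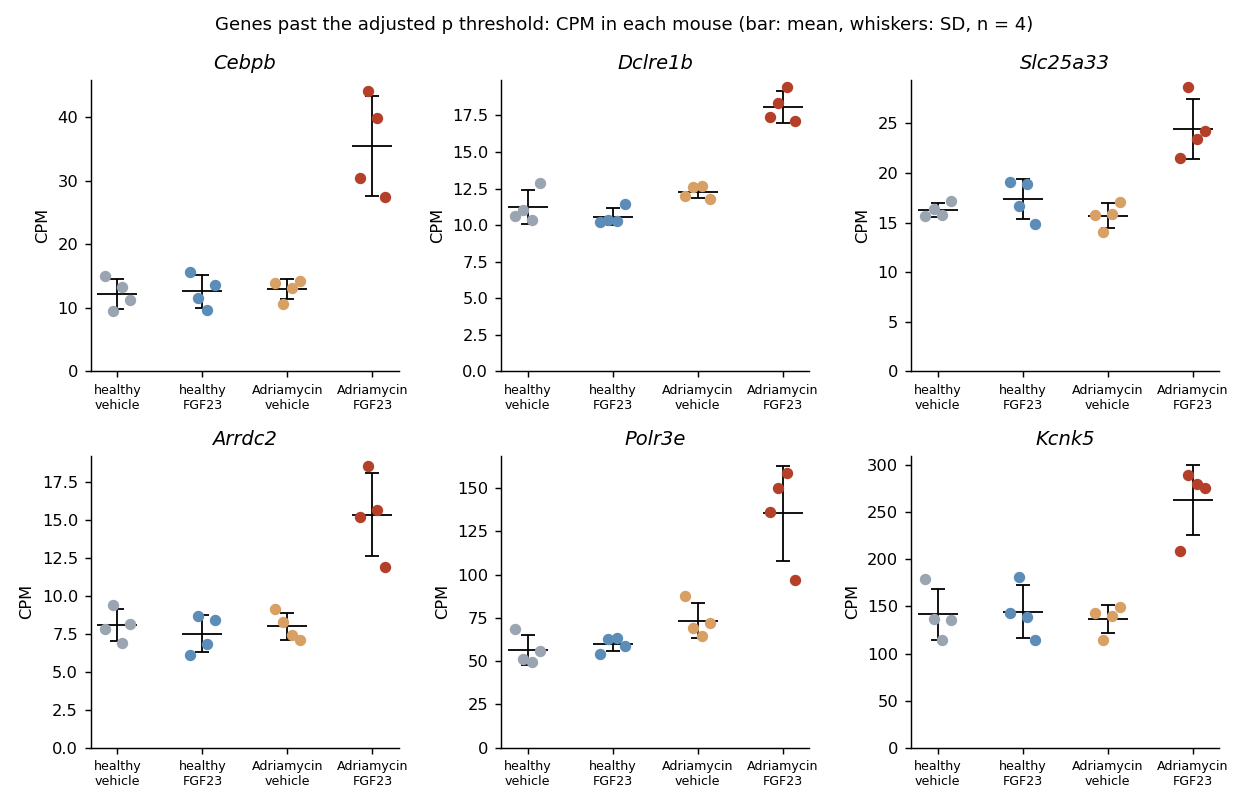
The CPM of the 6 called genes is plotted for each of 16 mice in 4 groups, with the bar at the group mean and whiskers of 1 SD (n = 4), each vertical axis starting at 0. In all 6 genes the Adriamycin FGF23 mice lie above every other mouse, for example at 27.5 to 44.2 CPM of Cebpb against 9.53 to 15.6 CPM in the other 12. The genes were chosen by the difference between the Adriamycin groups, which favours their separation.

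The genes next in line did not pass edgeR's test, though DESeq2 called Plekhf1, Usp2 and Nat2 higher (adjusted p = 0.000376, 0.000959 and 0.00217) and Edar and Fzd1 lower (0.0105 and 0.0253). Plekhf1, an endosomal phosphoinositide-binding protein, was at 18.04 to 20.8 CPM after vehicle and 23.1 to 33.3 CPM after FGF23 (log2 fold change 0.56, adjusted p = 0.069). Usp2, a deubiquitinase under clock control, was at 227.6 to 262.5 against 297.5 to 349.7 CPM (0.36, adjusted p = 0.112), and Nat2, an arylamine acetyltransferase, at 7.83 to 9.45 against 12.4 to 15.7 CPM (0.66, adjusted p = 0.133). None of these 3 genes overlapped between the groups, where 1.65% of all genes lay higher without overlap. They were chosen by their small p in these same mice, which favours such separation, so it is no separate result. Among the genes of lower level, the 10 with the smallest p had adjusted p from 0.133 to 0.313, and 4 of them belong to red cells: Hbb-bs, Hbb-bt, Hba-a1 and Alas2. The other 6 were Nr1d1, a clock repressor, Cx3cr1, the fractalkine receptor of monocytes and macrophages, Fzd1, a Wnt receptor, Edar, the ectodysplasin receptor, Il22ra1, a subunit of the interleukin-22 receptor, and Gm10925. Fzd1 was at 92.9 to 108 CPM after vehicle and 79.5 to 92.9 CPM after FGF23 (-0.28, adjusted p = 0.269). Edar was at 2.09 to 3.12 against 0.772 to 1.62 CPM (-1.28, adjusted p = 0.233) and Il22ra1 at 2.11 to 3.28 against 1.09 to 1.89 CPM (-0.78, adjusted p = 0.292).

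The genes through which FGF23 is known to act were examined in turn. For the receptor complex, Kl (Klotho) was at 726, 607, 658 and 838 CPM after vehicle and 619.7, 796, 755 and 832 CPM after FGF23, with full overlap (log2 fold change 0.09 ± 0.11). Fgfr1 was at 71.9 to 82.5 against 75.5 to 83.5 CPM (0.06 ± 0.06). Over 11 expressed genes for FGF receptors, Klotho, their adaptors and the FGF23-processing enzyme Galnt3, 6 were higher and 5 lower. They ranged from -0.15 for Fgfr2 to 0.13 for Galnt3, and none had an unadjusted p below 0.05.

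Genes that FGF receptors induce early were without calls at 24 h. Egr1, an early response gene of the MAPK cascade, was at 6.50, 26.5, 59.7 and 149.8 CPM after vehicle and 7.68, 37.3, 79.3 and 206 CPM after FGF23. Both groups thus spanned more than 1 order of magnitude, and the log2 fold change of 0.45 had an SE of 0.95. Dusp6, a phosphatase that feeds back on ERK, was at 52.9 to 64.7 against 54.4 to 73.8 CPM (0.17 ± 0.14). Spry4, another feedback inhibitor, was at 8.98 to 15.4 against 8.51 to 14.7 CPM (-0.07 ± 0.17). Of 23 expressed feedback targets, 12 were higher and 11 lower with a median of 0.00, and 0 had an unadjusted p below 0.05 in either direction. This balance depended on Ad16, without which 5 were higher and 18 lower with a median of -0.29.

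The endocrine targets gave no call either. Cyp24a1, which inactivates vitamin D, was at 28.7, 38.98, 161 and 46.5 CPM after vehicle and at 18.1, 35.7, 15.1 and 25.3 CPM after FGF23. Ad7 stood alone at the top of the vehicle group, and the log2 fold change was -1.55 ± 0.64 (adjusted p = 0.846). Without Ad7 it was -0.68. Cyp27b1, which makes active vitamin D, was at 5.99, 3.86, 5.51 and 4.65 CPM against 3.27, 6.11, 6.14 and 6.49 CPM (0.13 ± 0.37), with Ad13 below the rest of its group. Vdr, the vitamin D receptor, was at 255 to 288 against 259 to 303 CPM (0.03 ± 0.07). The phosphate transporters Slc34a1 (0.08 ± 0.11), Slc34a3 (0.01 ± 0.10) and Slc20a2 (0.02 ± 0.06) and the calcium channel Trpv5 (0.20 ± 0.15) had differences within 2 SE of 0. Over the 10 expressed phosphate transport genes the median was 0.02 with no unadjusted p below 0.05, and over 8 vitamin D genes it was -0.01 with only Cyp24a1 below that level.

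Podocyte and injury genes gave no call. Nphs1, which encodes the slit diaphragm protein nephrin, had a log2 fold change of 0.08 ± 0.09, and the 21 podocyte genes a median of 0.04 (14 higher, 7 lower, none with an unadjusted p below 0.05). Lcn2 was at 0.477 to 3.40 against 1.29 to 2.76 CPM (-0.08 ± 0.44) and Havcr1, the kidney injury molecule, at 33.5 to 83.1 against 37.6 to 69.2 CPM (0.03 ± 0.28). Over 21 tubular injury markers 9 were higher and 12 lower, with a median of -0.02. Both with an unadjusted p below 0.05 were higher, Clu at 0.27 (adjusted p = 0.825) and Krt20 at 1.79 (adjusted p = 0.873). Without Ad6, 17 of the 21 were higher with a median of 0.13. Lamp2 and Hspa8, parts of chaperone-mediated autophagy, had log2 fold changes of -0.00 ± 0.07 and 0.11 ± 0.08, and the median of 14 genes of that pathway was 0.01. Of 25 heat-shock chaperone genes 24 were higher, with a median of 0.08, but 16 of 25 were higher without Ad13. In Ad13 the chaperone gene Hspa4l was at 88.1 CPM against 37.7 to 39.8 CPM in the other FGF23 mice.

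Glucocorticoid-induced genes were mostly higher, with no call by edgeR and 3 by DESeq2 (adjusted p = 0.00303 for Per1, 0.0129 for Tsc22d3 and 0.0207 for Sgk1). Of 17 expressed members 14 were higher, beside 50.1% of all genes, 7 of them with an unadjusted p below 0.05 against 2.77% of all genes, and the median was 0.44. Sgk1, a kinase that also answers to aldosterone, was at 162, 132, 169 and 189.9 CPM after vehicle and at 301, 377, 451 and 166 CPM after FGF23. Ad13, Ad14 and Ad15 were above all vehicle mice, whereas Ad16 lay among the controls, and the log2 fold change of 0.99 ± 0.23 had an adjusted p of 0.269. Without Ad16 it was 1.21 (adjusted p = 0.00728) and without Ad15 0.79. No other omission brought Sgk1 past the threshold, and its adjusted p rose to 0.808 among the other settings. Ad16 was singled out by this value itself, so its omission favours a smaller p. Per1, a clock gene that glucocorticoids induce, was at 139, 141, 128 and 146 CPM against 166, 169, 198 and 199 CPM, with no overlap (0.40 ± 0.08, adjusted p = 0.173). Tsc22d3, which encodes the glucocorticoid-induced leucine zipper, had a log2 fold change of 0.70. The metallothioneins Mt1 and Mt2, near-identical genes that could share reads, were the other way at -0.37 and -0.52 (adjusted p = 0.885 for both). By mouse, the mean of the 17 expressed genes relative to the vehicle mean was 0.15, 0.60, 0.44 and 0.00 log2 units in Ad13 to Ad16. It lay between -0.17 and 0.21 in the vehicle mice. Leaving out single mice moved the median between 0.29 and 0.45.

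Clock genes lay on both sides of 0. Of 19 genes, 5 were higher and 3 lower at an unadjusted p below 0.05, beside 2.77% and 2.92% of all genes. The median was 0.05, with no call by edgeR. DESeq2 called Per1 higher and Nr1d1 lower in this list, and Noct, which is outside it, higher (adjusted p = 0.00303, 0.0275 and 0.00855). Nr1d1, which encodes the repressor REV-ERB-alpha, was at 142, 136, 154 and 134 CPM after vehicle and at 78.6, 90.1, 89.3 and 131 CPM after FGF23 (-0.54 ± 0.13, adjusted p = 0.313). Ad16 stood near the controls here as well, and without that mouse Nr1d1 was at -0.71 (adjusted p = 0.00935). Without Ad13 it was at -0.45. No other omission brought Nr1d1 past the threshold, and its adjusted p rose to 0.849 among the other settings. Leaving out Ad16 because of its value favours a smaller p. Bhlhe40, another repressor of the clock, was at 187 to 265 against 96.2 to 187 CPM (-0.65, adjusted p = 0.493). Noct, a rhythmic nocturnin gene, was at 21.1, 18.1, 30.1 and 14.1 CPM against 41.6, 64.2, 63.5 and 53.7 CPM, with no overlap (1.41 ± 0.29, adjusted p = 0.176). The hour of day at which each kidney was taken is not given in the sources used here.

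**Figure D3:**
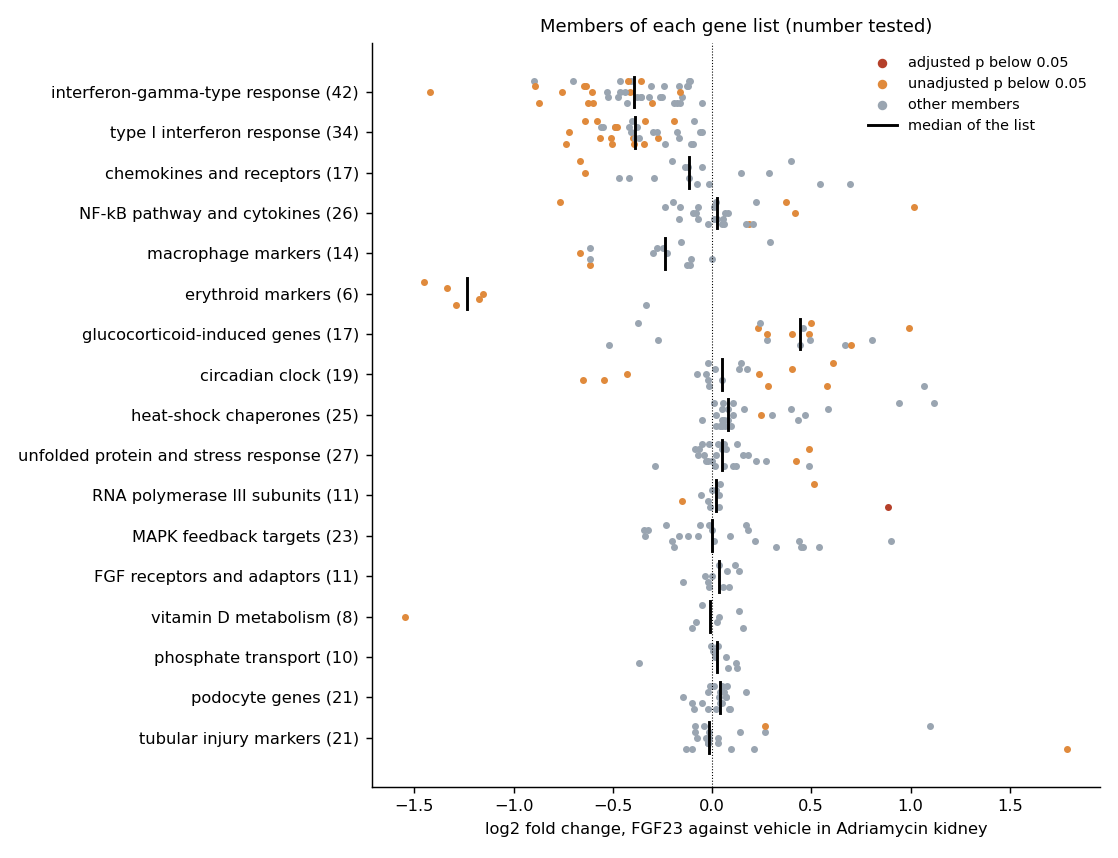
Points are the members of 17 gene lists, with the number tested in brackets, placed by their log2 fold change of FGF23 against vehicle in Adriamycin kidney, and black bars mark the list medians. Red marks an adjusted p below 0.05 (Polr3e here) and orange an unadjusted p below 0.05. The interferon lists and the erythroid list lie left of 0, with medians of -0.39, -0.39 and -1.23, and the glucocorticoid list lies to the right with a median of 0.44.

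Interferon-response genes were lower as a group, and the size of this rested largely on 1 vehicle mouse. All 42 expressed genes of the interferon-gamma-type list had a negative log2 fold change, beside 49.9% of all genes, with a median of -0.39. Of these, 14 had an unadjusted p below 0.05 against 2.92% of all genes, but 0 passed the adjustment. Irf1, a transcription factor of the interferon response, was at 33.8, 28.6, 26.4 and 20.3 CPM after vehicle and 16.8, 18.9, 19.1 and 27.1 CPM after FGF23 (-0.42 ± 0.15, adjusted p = 0.780). Tgtp1, an interferon-induced GTPase that shares sequence with its neighbour Tgtp2, was at 16.6, 4.91, 3.49 and 3.52 CPM against 3.37, 3.43, 3.52 and 5.47 CPM. Ad5 was thus several times above the other vehicle mice. Gbp4, a guanylate-binding protein gene that overlaps its paralogs, was at 50.1, 33.8, 23.9 and 22.003 CPM against 19.3, 23.7, 23.2 and 30.9 CPM (-0.43 ± 0.21). Without Ad5 the median of the list was -0.07, with 35 of 42 genes lower and 0 at an unadjusted p below 0.05. Leaving out any other mouse gave medians from -0.55 to -0.32.

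The 34 type I interferon-response genes, none of which is in the former list, were also all lower, with a median of -0.39. Of these, 15 had an unadjusted p below 0.05, against 2.92% of all genes, and 0 an adjusted p below 0.05. Without Ad5 the median was -0.28, with 33 of 34 lower and 8 at an unadjusted p below 0.05, when 2.26% of all genes were lower at that level. Cmpk2, a mitochondrial nucleotide kinase induced by interferon, was at 14.3, 14.3, 16.7 and 13.5 CPM after vehicle and 9.34, 10.6, 12.2 and 12.5 CPM after FGF23, without overlap (-0.40 ± 0.10, adjusted p = 0.376). Irf7 was at 22.9, 24.2, 23.5 and 11.6 CPM against 11.9, 12.8, 14.9 and 13.4 CPM (-0.64, adjusted p = 0.652). In this gene Ad8 was the vehicle mouse that lay with the treated group.

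Leukocyte markers were measured beside them. Of 14 macrophage markers 13 were lower, with a median of -0.24, and without Ad6 8 of 14 were lower with a median of -0.11. Cx3cr1 was at 8.66, 10.5, 8.48 and 7.33 CPM after vehicle and 5.24, 4.88, 5.09 and 7.01 CPM after FGF23 (-0.67 ± 0.16, adjusted p = 0.292). DESeq2 called it lower (adjusted p = 0.0275). Ly86, a partner of the surface receptor CD180, was at 2.27 to 2.48 CPM in the vehicle mice and at 1.24 to 1.36 CPM in 3 FGF23 mice, with Ad16 at 2.31 CPM. Adgre1, the F4/80 antigen, was at 3.88 to 5.33 against 3.47 to 5.02 CPM (-0.11 ± 0.14) and Ptprc, the pan-leukocyte antigen CD45, at 9.78 to 11.6 against 7.39 to 11.1 CPM (-0.24 ± 0.13). The summed level of the 14 macrophage markers ran from 134 to 231 CPM after vehicle and from 149 to 174 CPM after FGF23, and that of 8 general leukocyte markers from 44.6 to 54.1 and from 34.8 to 51.1 CPM, with no marker of either list at 0 in any mouse. The part of leukocytes in the interferon values was not tested. T cell markers were low throughout, Lck at 1.42 to 1.88 against 1.04 to 1.67 CPM and Trbc2 at 0.298 to 0.561 against 0.0519 to 0.450 CPM. Of 8 expressed T cell markers 6 were lower and 2 higher, from -0.84 to 0.44 with a median of -0.49 and no call.

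Red cell transcripts were the lowest group. All 6 erythroid markers were lower, with a median of -1.23. In 5 of them every FGF23 mouse lay below every vehicle mouse, where 1.77% of all genes did so. Hbb-bs, an adult beta-globin gene, was at 217, 170.5, 302 and 245 CPM after vehicle and 54.1, 111, 112 and 92.4 CPM after FGF23 (-1.33 ± 0.26, adjusted p = 0.133). Alas2, the erythroid enzyme of haem synthesis, was at 21.5, 15.9, 28.1 and 25.6 CPM against 5.09, 11.7, 10.8 and 9.45 CPM (-1.29 ± 0.27, adjusted p = 0.176). Hbb-bt and Hba-a1, near-identical to their neighbours, had log2 fold changes of -1.45 and -1.18. None passed the quasi-likelihood test, while DESeq2 gave adjusted p of 0.00256 for Hbb-bs, 0.000376 for Hbb-bt and 0.00224 for Alas2. Haemoglobin genes took 0.0247% to 0.0419% of counts after vehicle and 0.00780% to 0.0164% after FGF23. The median lay between -1.38 and -1.03 whichever mouse was left out. The part of blood left in the tissue was not tested.

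**Figure D4:**
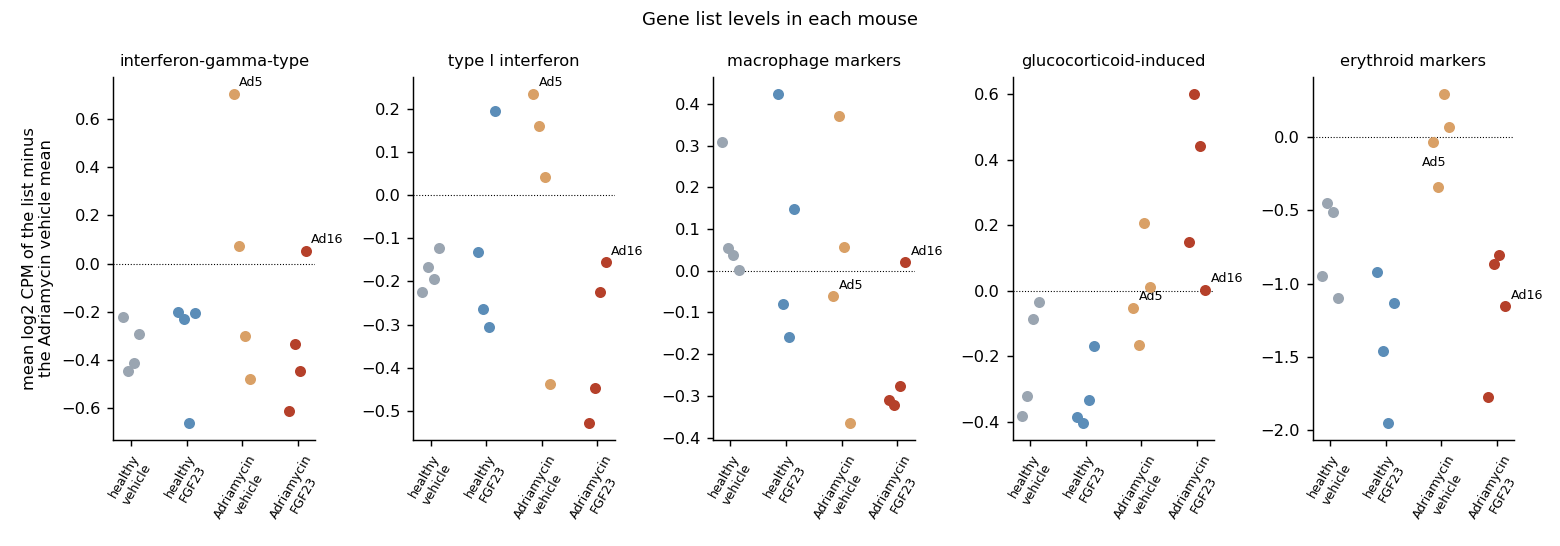
Each point is 1 mouse, placed by the mean log2 CPM of a gene list minus the mean of the Adriamycin vehicle group, with its own vertical scale in each panel. Ad5 is at 0.70 for the interferon-gamma-type list, above every other mouse. All 4 Adriamycin FGF23 mice lie within the range of the Adriamycin vehicle mice in the macrophage panel, and Ad13 and Ad16 do so in the glucocorticoid panel. The erythroid panel separates the Adriamycin FGF23 mice (-1.78 to -0.80) from the Adriamycin vehicle mice (-0.34 to 0.30). Healthy mice lie below that vehicle group too, at -1.10 to -0.45 after vehicle and -1.96 to -0.92 after FGF23.

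Whether FGF23 acted differently in healthy mice was tested by the interaction of disease and treatment. In healthy kidneys 0 genes passed (smallest adjusted p 0.155; 1072 at an unadjusted p below 0.05, or 6.69%; 8 by DESeq2). For the interaction 0 genes passed as well (smallest adjusted p 0.268; 819 at an unadjusted p below 0.05, or 5.11%; 7 by DESeq2, 0 by limma voom). Cebpb was at 14.98, 9.53, 13.2 and 11.2 CPM in healthy vehicle mice and 15.6, 11.5, 9.601 and 13.6 CPM in healthy FGF23 mice, so that neither healthy group reached the level of the Adriamycin FGF23 group. Its effect was 0.04 ± 0.18 in healthy mice, and the difference between the effects was 1.42 ± 0.25 (adjusted p = 0.278; 0.000544 by DESeq2). For Dclre1b the difference was 0.65 ± 0.11 (adjusted p = 0.268; 0.00258 by DESeq2), for Arrdc2 1.04 ± 0.20 (0.339; 0.00460 by DESeq2) and for Kcnk5 0.92 ± 0.21 (0.528; 0.0340 by DESeq2). For Polr3e and Slc25a33 it was 0.80 ± 0.19 and 0.54 ± 0.13, and neither method called it (0.528 and 0.553; 0.0723 and 0.165 by DESeq2). The healthy effects of these 6 genes ranged from -0.10 to 0.10.

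Of the genes with the smallest p for the interaction, the following 7 had effects of opposite sign in healthy and diseased kidney, and none passed the quasi-likelihood test. Choosing genes by the difference between the effects favours opposite signs, so these signs are no separate result. Plk3, a stress-responsive polo-like kinase, averaged 34.2 ± 6.3 CPM in healthy vehicle, 25.3 ± 1.4 in healthy FGF23, 23.5 ± 6.5 in Adriamycin vehicle and 42.1 ± 8.2 CPM in Adriamycin FGF23 mice (SD, n = 4 each). Noct averaged 33.3, 22.4, 20.9 and 55.8 CPM in the same order, with a difference of effects of 1.99 ± 0.41 (adjusted p = 0.490). In the other direction, Il22ra1 averaged 2.10, 3.01, 2.57 and 1.48 CPM (difference -1.31 ± 0.25, adjusted p = 0.339). Eda2r, a p53-induced receptor, averaged 0.994, 1.64, 2.58 and 1.81 CPM (-1.22 ± 0.26, adjusted p = 0.515), and Cmpk2, Slc29a3 and Cdc14b had differences of -0.63, -0.45 and -0.33 (adjusted p = 0.528 for each). The effect of FGF23 on the erythroid markers had a median of -0.60 in healthy mice, with 6 of 6 lower, beside -1.23 in Adriamycin mice. The medians of the 2 interferon lists were 0.05 and 0.05 in healthy mice, and that of the glucocorticoid list was -0.07.

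The response to 1 injection in Adriamycin disease was set against that to 6 days of FGF23 in anti-GBM disease. The experiments differed in strain, sex, disease and exposure, which cannot be told apart, and the test compared the effect of FGF23 between them. Of 16954 genes tested over 30 libraries, 85 differed at an adjusted p below 0.05 (0.501%), 21 with a higher (0.124%) and 64 with a lower value (0.377%) in Adriamycin disease. This count ran from 28, without the anti-GBM FGF23 mouse numbered 13, to 464, without the anti-GBM vehicle mouse numbered 7. All 6 genes that FGF23 raised in Adriamycin disease had a negative value in anti-GBM disease and differed between the experiments. These 6 had been chosen by their effect in the same Adriamycin mice, so the tests of the difference are not independent of that choice. For Cebpb the log2 fold changes were 1.46 and -0.70 (difference 2.15 ± 0.30, adjusted p = 0.000888) and for Dclre1b 0.56 and -0.33 (0.89, adjusted p = 0.00557). For Polr3e, Kcnk5, Arrdc2 and Slc25a33 the differences were 1.27, 1.52, 1.82 and 1.10 (adjusted p = 0.00762, 0.0353, 0.0353 and 0.0299). In anti-GBM disease alone none of the 6 passed, with adjusted p from 0.101 to 0.225.

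The gluconeogenic enzyme gene G6pc, the gap junction gene Gja1 and the inositol hexakisphosphate kinase gene Ip6k2 also differed upwards. G6pc was at 612, 437, 711 and 834 CPM after vehicle and 745, 975, 1028 and 785 CPM after FGF23 in Adriamycin mice (0.45), with a value of -1.43 in anti-GBM mice (difference 1.88, adjusted p = 0.00249). Gja1 and Ip6k2 had 0.44 and 0.50 in Adriamycin and -0.83 and -0.51 in anti-GBM disease (adjusted p of the difference = 0.00552 and 0.00621). Sgk1 had 0.99 and -1.09 (adjusted p of the difference = 0.0243).

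Interferon genes were among the 64 with a lower value in Adriamycin disease. Irf1 had -0.42 and 1.25 (difference -1.68 ± 0.22, adjusted p = 0.000746), Gbp9 -0.30 and 1.15 (-1.45, adjusted p = 0.000823), Gbp4 -0.43 and 1.86 (-2.29, adjusted p = 0.00155) and Tgtp1 -0.87 and 2.48 (-3.35, adjusted p = 0.00249). Gm8995 and Cd274, the checkpoint ligand PD-L1, differed likewise by -1.43 and -1.64. Without the vehicle mouse Ad5 the Adriamycin values were -0.30 for Irf1, -0.20 for Gbp9, -0.13 for Gbp4 and -0.02 for Tgtp1. For Gm8995 and Cd274 they were then -0.25 and -0.04. Of the 42 interferon-gamma-type genes 22 differed past the threshold and all 42 were lower in Adriamycin disease, beside 50.7% of all genes, with medians of -0.39 and 1.10. Of the 34 type I genes 9 differed, with medians of -0.39 and 0.55. Without Ad5 the Adriamycin medians of the 2 interferon lists were -0.07 and -0.28. Erythroid markers, by contrast, had medians of -1.23 and -1.53, with 0 of 6 differing. For Hbb-bs the difference was 0.21 (adjusted p = 0.888).

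**Figure D5:**
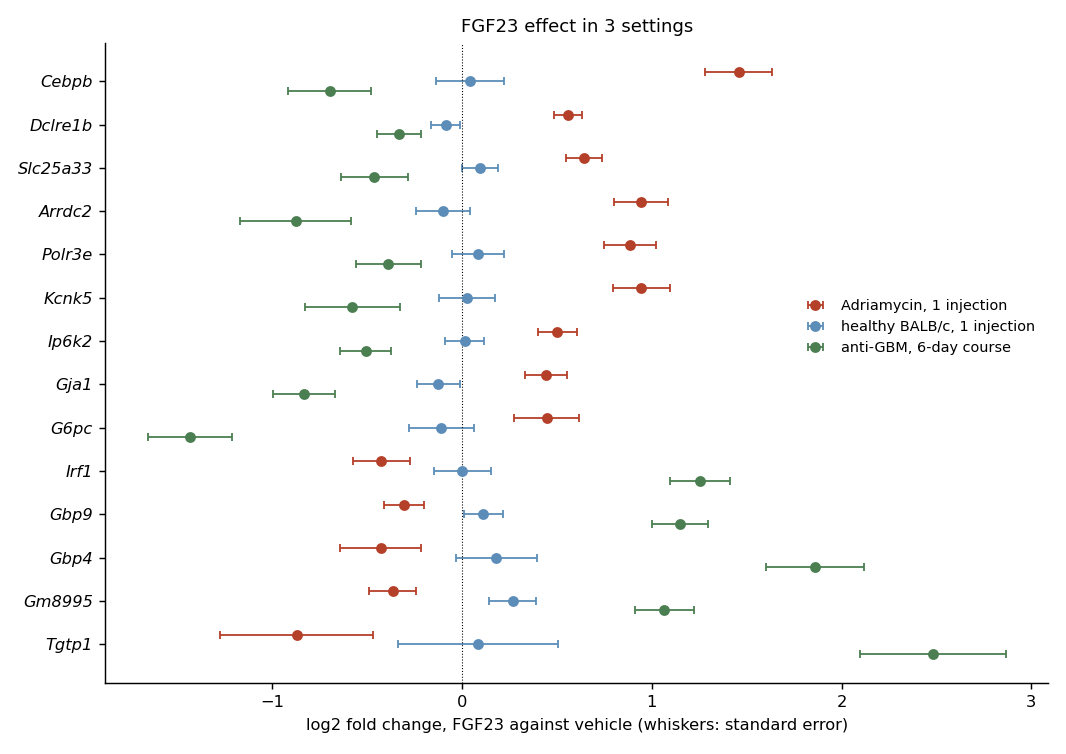
The log2 fold change of FGF23 against vehicle is shown with its standard error for 14 genes in Adriamycin disease (red), healthy BALB/c mice (blue) and anti-GBM disease (green). The first 6 genes are those called in Adriamycin disease and the remaining 8 are those with the smallest p for the difference between diseases in each direction, in addition to those 6. Red and green points lie on opposite sides of 0 in all 14 rows, for Cebpb at 1.46 and -0.70 and for Irf1 at -0.42 and 1.25. The genes were chosen by these same values, which favours opposite sides, so the pattern is no separate result. Without the vehicle mouse Ad5 the red value of Tgtp1 was -0.02.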

How the data were processed

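Kidney RNA of 16 BALB/c mice (4 groups of 4) was sequenced by the authors as stranded mRNA libraries. The deposited values were raw counts per gene for 55487 genes, made by the authors with featureCounts and without normalization. The submitters' processing notes name bcl2fastq 2.20.0, FastQC 0.11.8, STAR 2.7.9a, featureCounts 1.5.1 and GRCm38. The strand setting and the treatment of multimapping reads are not given in the sources used here, so counts of near-identical or overlapping genes are uncertain. Columns were matched to groups by name. Mice keep the numbers of their columns, and 8 libraries of kidney slices were not analysed here. A gene table gave names for 55141 genes and none for 346.

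Genes were kept by filterByExpr (minimum count 10), scaled by TMM and tested in R 4.3.3 with edgeR 4.0.16 by the quasi-likelihood test with Benjamini-Hochberg adjustment. The 4 BALB/c groups shared 1 fit with 12 residual degrees of freedom, and the same fit gave the interaction. The contrast with anti-GBM disease came from a fit of 30 libraries (16954 genes). CPM used the TMM-scaled totals, and list means log2 CPM with a prior count of 2. Standard errors are the size of the log2 fold change divided by the square root of its quasi-likelihood F statistic. The study used DESeq2 with 1 adjustment over several contrasts, named in its methods as disease status, treatment status and their interaction. DESeq2 1.42.0 was run here as an alternative, with its own adjustment per contrast and with 1 combined adjustment. The combined adjustment covered the FGF23 effects in Adriamycin and in healthy mice and the interaction, which is not the set the study names. Other alternatives were limma voom (limma 3.58.1), other scaling, filters and thresholds, robust fitting, a fit of the 2 groups alone and the omission of each mouse. The procedure was tested on simulated data with known changes. Each mouse was a separate animal, and p-values measure the spread between animals.

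Named genes were all those called up to 30, the 10 of smallest p in each direction, the 5 of smallest p for the interaction and for the difference from anti-GBM disease in each direction, up to 2 per list and direction, and a set chosen for the study's question. The comparison, the lists and this set were chosen with earlier results of these data known. The RNA polymerase III list and the B box were added after values had been seen. Totals of 15665050 to 23602823 counts in the 8 Adriamycin libraries set the counting precision of genes of low level. Promoter windows and start sites are RefSeq's on GRCm38.p6, from 250 bases before to 50 after the start.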

Additional observations from a re-analysis of the deposited data

Results flagged for a closer look

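Within the groups of 4 Adriamycin mice, 12 of 170 sets of values had 1 mouse farther from the rest than Dixon's 95% limit, which chance alone gives in about 1 in 20. In Ad16 of the FGF23 group, Fzd1 was at 92.9 CPM (others 79.5 to 81.7), Cx3cr1 at 7.01 CPM (4.88 to 5.24), Tgtp1 at 5.47 CPM (3.37 to 3.52), Ly86 at 2.31 CPM (1.24 to 1.36) and the mean of the macrophage markers at 0.0213 log2 units from the vehicle mean (-0.321 to -0.277). For Tgtp1, 3 of the 4 vehicle mice were below Ad16. In Ad13 of the same group, Cyp27b1 was at 3.27 CPM (6.11 to 6.49), Slc34a3 at 85.5 CPM (107 to 110.3) and Hspa4l at 88.1 CPM (37.7 to 39.8). Among vehicle mice, Tgtp1 stood at 16.6 CPM in Ad5 (3.49 to 4.91), Cyp24a1 at 161 CPM in Ad7 (28.7 to 46.4), Polr3a at 31.8 CPM in Ad7 (33.8 to 34.2) and Irf7 at 11.6 CPM in Ad8 (22.9 to 24.2).

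The effect of FGF23 differed between Adriamycin and anti-GBM disease for 23 of the named genes by edgeR's quasi-likelihood test on the difference, with adjusted p from 0.000746 to 0.0397. It was more positive in Adriamycin disease, on the log2 scale, for Noct (2.69), Cebpb (2.15), Sgk1 (2.08), G6pc (1.88), Arrdc2 (1.82), Kcnk5 (1.52), Gja1 (1.27), Polr3e (1.27), Slc25a33 (1.10), Ip6k2 (1.01), Plekhf1 (1.00), Polr3d (0.93) and Dclre1b (0.89). It was more negative for Tgtp1 (-3.35), Tgtp2 (-2.51), Gbp4 (-2.29), Irf1 (-1.68), Cx3cr1 (-1.64), Cd274 (-1.64), Gbp9 (-1.45), Gm8995 (-1.43), Irf7 (-1.30) and Cmpk2 (-0.84). Over all genes 85 of 16954 differed (0.501%). Genes had been named partly by this same difference and by their effect in the Adriamycin mice, so the 23 are not an independent count. Strain, sex, disease and the length of exposure cannot be told apart in this contrast.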

How the results depend on the processing

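Against 6 genes called in Adriamycin kidney, RLE scaling gave 6, a minimum of 10 counts in every library 6, limma voom 6, robust fitting 4 and an adjusted p below 0.1 gave 7. Without a filter on low counts there were 21 (18 higher, 3 lower), with a log2 fold change above 1 as well 1, with the adjustment over 3 comparisons combined 2, with only the 2 groups in the fit 3, with DESeq2 36 and with DESeq2 under the combined adjustment 32. Leaving out single mice gave 1 to 12 (2 without Ad6 or Ad7, 3 without Ad8, 11 without Ad13, 1 without Ad14 or Ad15, 12 without Ad16). For healthy mice, against 0, there was 1 call without the filter, 8 with DESeq2, 16 with DESeq2 combined and 0 to 4 without single mice (4 without Ad12). For the interaction, against 0, these were 1, 7, 11 and 0 to 1 (1 without Ad16). For the difference from anti-GBM disease, against 85, an adjusted p below 0.1 gave 142, DESeq2 190 and single omissions 28 to 464. The low counts were 28, 35 and 52 without anti-GBM mice 13, 14 and 8, 37 without Ad5 or Ad6, 46 without Ad13 or Ad15 and 35 without Ad14, and the high ones 233 and 464 without anti-GBM mice 16 and 7. The cause was not tested. No called gene reversed. Of 880 values for single genes, 30 reversed in sign, all for genes that were not called. With only the 2 groups in the fit Lamp2 was at 0.00013. Without single mice the log2 fold change ran from -0.0039 to 0.073 for Vdr, -0.047 to 0.093 for Slc34a3, -0.0073 to 0.074 for Slc20a2, -0.53 to 1.41 for Egr1, -0.19 to 0.059 for Spry4, -0.37 to 0.36 for Lcn2, -0.13 to 0.33 for Havcr1, -0.57 to 0.0795 for Tgtp2, -0.22 to 0.00038 for Adgre1, -0.057 to 0.23 for Vcam1, -0.38 to 0.062 for Pdgfrb and -0.044 to 0.037 for Lamp2. Of 604 list medians, 591 moved by less than the spread between mice. No paired analysis was possible because the columns carry mouse numbers that no 2 groups share. With 4 mice a group, differences within the spread between mice were not detectable, and genes of few counts such as Trbc2 and Adipoq are limited by depth.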

Other observations

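Further gene groups of the Adriamycin kidney are given here as values, with no call in any of them in edgeR's quasi-likelihood test, while DESeq2 called Herpud1. Of 27 genes of myofibroblasts, matrix and TGF-beta, 21 were higher after FGF23, with a median log2 fold change of 0.11. The median was -0.12 without Ad16 (9 of 27 higher), -0.0077 without Ad5 (13 of 27), 0.27 without Ad6 (24 of 27) and 0.30 without Ad13 (26 of 27). Tgfb3, a TGF-beta ligand, had the smallest p among them (0.54, adjusted p = 0.623). Of 53 nuclear-encoded subunits of oxidative phosphorylation 38 were higher, with a median of 0.03, whereas 8 of 12 mitochondrially encoded genes were lower, with a median of -0.05 (5 of 12 without Ad5). All 7 thick ascending limb markers were lower (median -0.14, smallest adjusted p 0.942), as were all 7 intercalated cell markers (median -0.05), though without Ad8 4 of these were higher (median 0.020). All 5 markers of the distal convoluted tubule were higher (median 0.07), and 2 of 5 without Ad16. The 26 p53 targets had a median of 0.01, with Trp53inp1 at 0.39 (adjusted p = 0.718) and Cdkn1a at 0.27 (adjusted p = 0.885). Of 26 NF-kB and cytokine genes 16 were higher, with a median of 0.02 (12 of 26 and -0.02 without Ad8). Nfkbia, the NF-kB inhibitor, had 0.42 (adjusted p = 0.718) and Il1b -0.76 (adjusted p = 0.844). Herpud1, a component of the endoplasmic reticulum stress response, had 0.43 (adjusted p = 0.218; 0.00860 by DESeq2) in a list of 27 stress genes with a median of 0.05.

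Some genes varied widely between single mice of a group. Kap, an androgen-regulated proximal tubule gene, was at 73.2, 289.7, 84.9 and 288 CPM after vehicle and 546, 643, 587 and 283 CPM after FGF23 (log2 fold change 1.49, adjusted p = 0.608). Ad16 again lay with the vehicle mice. Aqp2, the collecting duct water channel, was at 207 to 329 CPM in the vehicle mice and at 171 to 247 CPM in 3 FGF23 mice, with Ad13 at 553 CPM. Avpr2, the vasopressin receptor of the same cells, was at 28.5 CPM in Ad13 and 9.52 to 18.04 CPM in the other 7 mice. These genes were chosen after their values were seen.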
